A study of Mus musculus with 237 samples.

Results

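The cytosolic ribosomal protein genes were followed across single cells of the embryonic mouse kidney. They were taken as every entry of the deposited table whose symbol is Rpl or Rps followed by a number, with or without a final a, x or l, together with Rplp0, Rplp1, Rplp2 and Rpsa. This rule gave 80 of 36186 gene entries, 49 of the large and 31 of the small ribosomal subunit. Of these, 77 were at 1 RPKM or more in at least 50% of the cells of a group. RPKM is a read number corrected for transcript length and for the size of the library.

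The study profiled 236 cells in 5 labelled groups, each cell sorted by flow and captured alone on a Fluidigm C1 device. At E18.5 (the age in embryonic days) there were 74 wild-type cap mesenchyme cells and descendants, called E18.5 cap here, 71 wild-type interstitium cells and 44 Pax2 mutant cells of the cap lineage. At E13.5 there were 18 wild-type and 29 Pax2 mutant cap lineage cells. The strain is given as mixed in every group, the Pax2 allele is not named, and the titles of the interstitium cells carry FoxD1 GCE, which is left as written. The series asks how Pax2 keeps nephron progenitors apart from the interstitium. No label names an embryo, so each group counts as 1 sample. No test between groups was made, and each SD is the spread between cells.

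Pax2 was detected, at 1 RPKM or above, in 56 of 74 E18.5 cap and 18 of 71 interstitium cells and in 0 of 44 E18.5 mutant cells. At E13.5 it was so in 15 of 18 cap cells and in 17 of 29 mutant cells. Which exons the mutation removes is not stated, so the reads in E13.5 mutant cells do not check the label, and "E13.5 mutant" stands for the label throughout. The nephron progenitor marker Six2 was detected in 62 of 74 E18.5 cap and 1 of 44 E18.5 mutant cells. The stromal marker Col1a1 was detected in 14 of 74 E18.5 cap, 67 of 71 interstitium and 44 of 44 E18.5 mutant cells, so the markers of E18.5 mutant cells go against a cap identity. Mean marker scores for ureteric epithelium, endothelium, immune cells and erythroid cells were at most 0.39 on the log2(RPKM + 1) scale in any group. Single cells stood far above that in 1 E18.5 mutant cell (immune, 6.50), 1 E13.5 mutant cell (ureteric, 6.39) and 1 E13.5 cap cell (endothelial, 4.40), and all were kept. Groups also differ in pool number, and in sex as read from Xist and Y-linked genes: Xist without Y-linked transcripts was found in 42 of 44 and 27 of 29 mutant cells of the later and the earlier age and in 67 of 74 E18.5 cap cells, and the reverse in 17 of 18 E13.5 cap cells and 70 of 71 interstitium cells.

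A cytosolic ribosome is built from ribosomal RNA and about equal amounts of each ribosomal protein, so the genes for these proteins are transcribed at high levels in growing cells. Their mRNAs start with a C followed by a run of pyrimidines, the TOP motif, through which mTOR signalling and the binding protein Larp1 set their translation. Assembly takes place in the nucleolus with a separate set of biogenesis factors. In kidney development, the cap mesenchyme is a dividing progenitor pool.

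The start windows of some members described singly in the results are given first, because the TOP motif is the sequence feature the family is known for. Rps27 is shown beside its close copy Rps27l. No window was matched for Rpl29, and that of Rps14 was not looked up. Each window is 30 bases of the RefSeq GRCm38.p6 start region on the transcribed strand, 15 before and 15 from the annotated start, and capitals mark CTTTC or CTTCC, 2 short stand-ins for the motif. The windows lie at chr3:90213634-90213663 (minus strand) for Rps27, chr9:66946071-66946100 (plus) for Rps27l, chr2:26910792-26910821 (plus) for Rpl7a, chr2:32961697-32961726 (plus) for Rpl12, chr17:28328456-28328485 (plus) for Rpl10a, chr16:55966260-55966289 (plus) for Rpl24, chr10:80292416-80292445 (plus) for Rps15 and chrX:74270801-74270830 (plus) for Rpl10.
Rps27: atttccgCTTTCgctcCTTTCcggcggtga
Rps27l: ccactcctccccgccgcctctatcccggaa
Rpl7a: attccctcttCTTTCTTTCtccagcagccg
Rpl12: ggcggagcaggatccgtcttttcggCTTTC
Rpl10a: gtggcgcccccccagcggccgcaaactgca
Rpl24: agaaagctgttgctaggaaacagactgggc
Rps15: cccggcagagctcgcgataactgcgcaagc
Rpl10: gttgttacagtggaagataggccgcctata

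A RefSeq window was matched for 60 of the 80 members and for 26965 other genes. CTTTC stood on the transcribed strand in 16 of the 60 member windows (26.7%), against 3.92% of other genes. CTTCC stood there in 11 (18.3%), against 6.78%, and the searches overlap where the letters run together. Either stood in 23 windows (38.3%), against 10.4%. On the other strand the shares were 3.33% against 3.43% for CTTTC and 13.3% against 7.29% for CTTCC. Of the members shown, Rpl7a, Rpl12 and Rps27 hold CTTTC in this window, while Rpl10a, Rpl24, Rps15, Rpl10 and Rps27l hold neither string. A match is a description of letters, and a window without one says only that these letters are not in it. The annotated start of Rps27l lies before the start of its entry in the deposited table.

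Rps27 and its close copy Rps27l differed in how evenly cells carried them, so their coding sequences are shown side by side. Rps27 encodes a small subunit protein that binds zinc, at chr3:90212667-90213648 (mm10, as deposited). Rps27l encodes a paralog of it, known as a p53 target, at chr9:66946118-66949509. Both are protein-coding genes with 252 coding bases (GENCODE M21, stop codon left out), of which 60 differ and are in capitals, so that 76.2% are identical.
Rps27: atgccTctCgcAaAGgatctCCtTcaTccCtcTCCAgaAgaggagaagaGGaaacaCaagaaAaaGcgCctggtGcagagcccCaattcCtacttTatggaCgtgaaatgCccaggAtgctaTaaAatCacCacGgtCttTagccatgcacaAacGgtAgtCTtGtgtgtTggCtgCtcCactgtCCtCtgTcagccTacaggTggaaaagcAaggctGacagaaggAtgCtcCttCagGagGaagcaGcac
Rps27l: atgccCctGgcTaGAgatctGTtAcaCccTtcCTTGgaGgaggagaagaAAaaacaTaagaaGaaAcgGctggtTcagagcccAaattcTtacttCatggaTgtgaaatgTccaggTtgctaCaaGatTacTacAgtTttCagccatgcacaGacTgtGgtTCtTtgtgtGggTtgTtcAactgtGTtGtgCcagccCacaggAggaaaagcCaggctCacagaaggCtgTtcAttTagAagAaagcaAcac

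The members were read in nearly all cells. The median cell of every group had 77 members at 1 RPKM or more, and the lowest cell had 40 in E18.5 cap, 66 in interstitium, 42 in E18.5 mutant, 75 in E13.5 cap and 42 in E13.5 mutant. Together they took a median of 14.7% of a cell's RPKM sum in E18.5 cap (4.04% to 22.1%), 13.1% in interstitium (6.77% to 29.3%), 13.4% in E18.5 mutant (3.48% to 19.4%), 14.003% in E13.5 cap (8.48% to 22.6%) and 10.5% in E13.5 mutant cells (2.85% to 33.3%). These ranges overlap between all groups.

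The family score, the mean of log2(RPKM + 1) over the 80 members in a cell, was lowest and most variable in E13.5 mutant cells. It was 8.50 ± 1.18 (SD between 74 cells; lowest 3.73, median 8.87, highest 9.55) in E18.5 cap. In interstitium it was 8.58 ± 0.63 (71 cells; 5.87, 8.73, 9.44), and in E18.5 mutant cells 8.10 ± 1.13 (44 cells; 2.88, 8.39, 9.07). It was 8.80 ± 0.48 (18 cells; 7.31, 8.86, 9.69) in E13.5 cap and 7.41 ± 1.74 (29 cells; 3.02, 8.26, 9.11) in E13.5 mutant. The 5 medians span less than the SD of 4 of the 5 groups, while the means are pulled down by a tail of low cells. Scores under 6 were found in 7 of 29 E13.5 mutant cells but 0 of 18 E13.5 cap cells. At E18.5 they were found in 6 of 74 cap cells, 2 of 71 interstitium cells and 2 of 44 mutant cells.

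**Figure D1:**
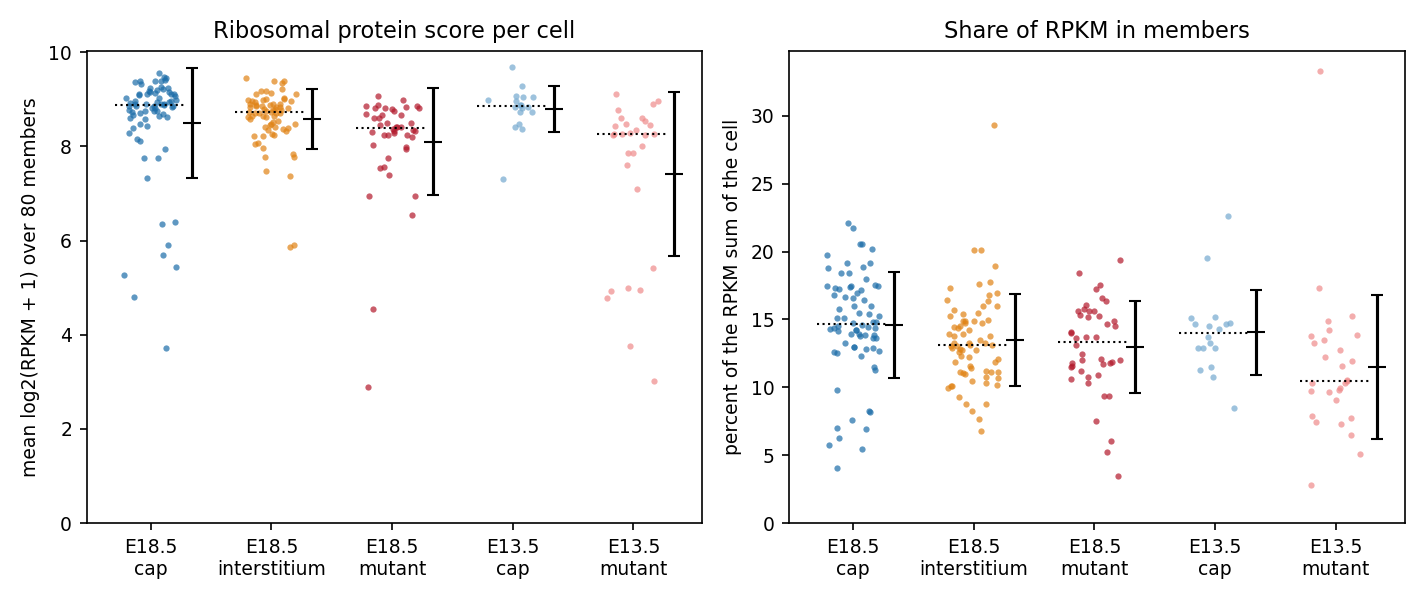
Each point is 1 cell, by group. The left axis gives the mean log2(RPKM + 1) over 80 members, the right axis the percent of the RPKM sum of the cell in members; dotted lines are medians and bars the mean ± SD between cells. The 7 E13.5 mutant cells under a score of 6 stand apart from the other 22, and the shares of RPKM overlap in all groups.

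Low family scores went with few genes per cell and with a high share of the entry LOC100503946, a gene model with no other name in the table. The score was higher in cells with more detected genes, at a Pearson r across cells of 0.62 in E18.5 cap, 0.22 in interstitium, 0.52 in E18.5 mutant, 0.46 in E13.5 cap and 0.91 in E13.5 mutant cells. Spearman rho was 0.36, 0.11, 0.45, 0.49 and 0.81 in the same order. With the percent of RPKM in LOC100503946, r was -0.91, -0.64, -0.68, -0.72 and -0.86, and rho was weaker at -0.48, -0.18, -0.21, -0.34 and -0.61. These correlations are descriptions over 74, 71, 44, 18 and 29 cells, and all values of a cell share its library and depth. The 7 E13.5 mutant cells under a score of 6 had 1849 to 3210 genes, and no other cell of that group had fewer than 3548. LOC100503946 took a median of 1.77%, 0.976%, 0.783%, 0.780% and 1.22% of RPKM in the 5 groups, and up to 79.4% in an E18.5 cap and 85.9% in an E13.5 mutant cell. Median genes per cell were 5210.5, 5178, 3643, 5566 and 4560.

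**Figure D2:**
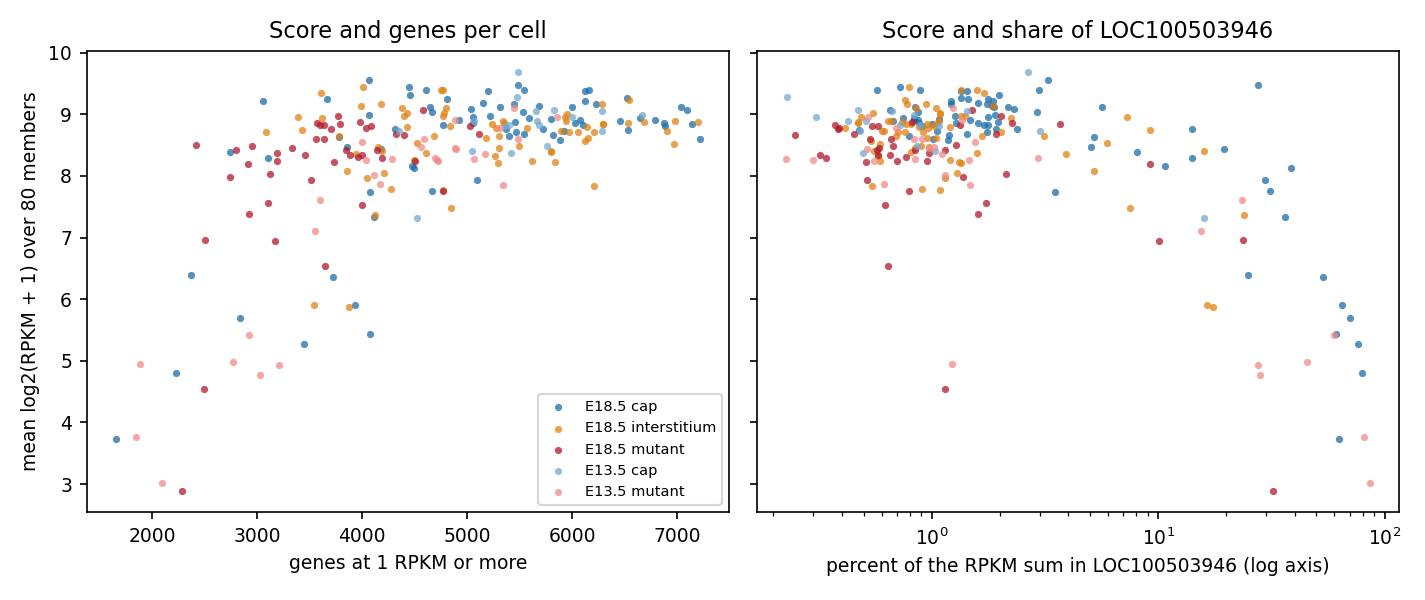
Each point is 1 cell, coloured by group, with the family score in log2(RPKM + 1) on the vertical axis. The horizontal axes are the genes detected per cell, at 1 RPKM or above (left), and the percent of RPKM in LOC100503946 (right, log axis); low scores lie at few genes and mostly at high shares of LOC100503946.

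Levels differed between members far more than between groups. Rpl41, the shortest ribosomal protein, was highest at a mean of 10.98 over the 5 group means of log2(RPKM + 1). Its median RPKM was 2469 in E18.5 cap, 2284 in interstitium, 1891 in E18.5 mutant, 2583 in E13.5 cap and 2099 in E13.5 mutant cells, and every cell had it. Its 75 coding bases, shown whole because they are the fewest of any member, are:
Rpl41: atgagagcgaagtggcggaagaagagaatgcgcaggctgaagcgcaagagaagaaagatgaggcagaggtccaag

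Among those below it were Rps14 (10.40), Rps18 (10.19), Rpl32 (10.03), Rpl9 (10.03), Rplp0 (9.94), Rpl4 (9.88) and Rpl13 (9.86), all mean levels per length. Rplp0 forms the base of the stalk that recruits translation factors. At the low end of the read members stood Rps15a (5.01), Rpl22 (5.67), Rps27l (5.76), Rps24 (6.01), Rpl18 (6.61), Rps12 (6.85) and Rps21 (6.91). The order of levels was alike in all groups, with Spearman rho between pairs of groups from 0.87 to 0.97 over 80 members, a description across genes. Coding length, from 75 to 1257 bases, had an r of 0.15 with level over the 77 read members.

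**Figure D3:**
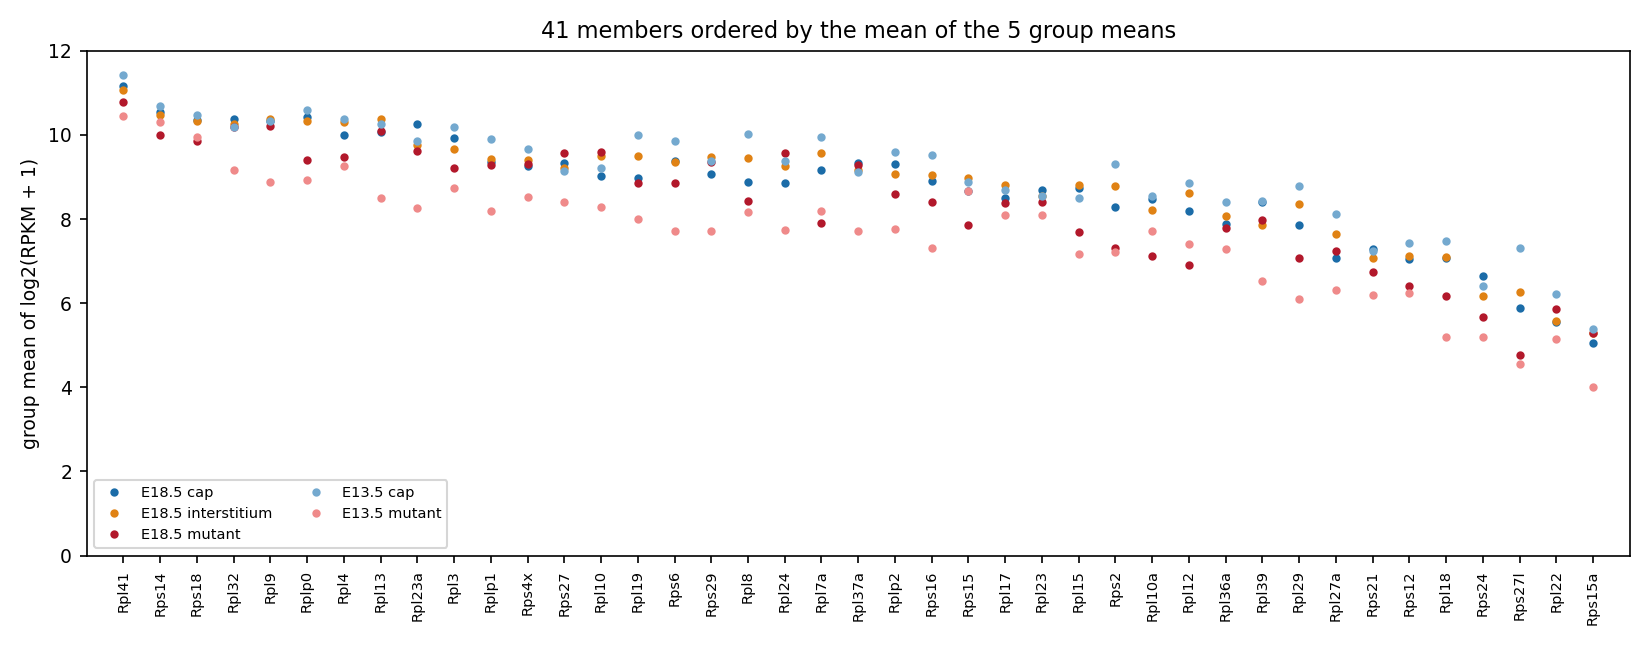
Each column is 1 of 41 read members described in the text, ordered by the mean of the 5 group means. Points give the group mean of log2(RPKM + 1); Rpl41 is at the left near 11, Rps15a at the right near 5, and the E13.5 mutant means are the lowest for most members.

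The paralogs with restricted expression were almost silent. Rpl10l and Rpl39l, copies known from testis, were listed at 0 in all cells. Rpl3l, a copy known from muscle, was above 1 RPKM in 1 of 29 E13.5 mutant cells (3.45%; exact 95% Clopper-Pearson interval 0.09 to 17.8%), at 39.02 RPKM, and in no cell of the other groups. The coding sequence of Rpl39l is 85.0% identical to Rpl39, that of Rpl10l 84.7% to Rpl10 and that of Rpl3l 75.04% to Rpl3 over the aligned bases. Rps27l was the exception among the copies, read at E13.5 in 17 of 18 cap and 19 of 29 mutant cells, and at E18.5 in 61 of 74 cap, 65 of 71 interstitium and 34 of 44 mutant cells.

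In E18.5 mutant cells most members were slightly lower than in E18.5 cap cells, by less than the spread between cells. The family score was lower by 0.40 (8.10 ± 1.13 against 8.50 ± 1.18), and the median member difference was -0.43. Of the 80 members, 66 lay below 0 and 11 above. Lower by at least 1 log2 unit were 6 members and higher by as much were 0, where 42.3% of 4623 genes at 1 RPKM in 50% of the cells of either group were lower and 6.4% higher by that much. Over genes at 1 RPKM in 10% of the cells the shares were 23.2% and 4.51%. The median of the 4623 genes was -0.79, and 14 of 77 read members lay below it. The cells of both groups overlapped for every member, a check not made for other genes, so it says nothing particular to the family. All 44 E18.5 mutant cells carry pool number 4 and the cap cells pool number 2, so pool and genotype cannot be told apart.

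The number of genes per cell moved with this comparison. The RPKM sum of a cell differed too, with a median of 388516 in mutant and 416943 in cap cells. With every cell rescaled to the same sum the score difference was -0.22, and 4 members were lower, where 39.9% of genes were. With median-ratio scaling, over genes at 1 RPKM in 90% of cells, it was -0.11, and 1 member was lower, where 34.5% of genes were. Among cells with 3000 to 5000 genes, 33 mutant and 26 cap cells, the score difference was 0.08, so the sign turned at matched gene number. There 1 member was lower and 2 were higher by 1 log2 unit, where 19.04% of genes in the 50% set were lower and 12.9% higher. Without cells at 20000 RPKM or more for LOC100503946, which leaves 40 and 54 cells, it was -0.70 and 15 of 80 members were lower, where 52.5% of genes were and the median gene stood at -1.09. Cell identity markers moved with the comparison too: of 8 nephron progenitor markers 7 were lower (median -3.27), and of 8 stroma markers 8 were higher (median 5.17). Their part in the result was not tested.

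Ribosome biogenesis and cell cycle genes had lower median differences than the ribosomal proteins. The counts of lower genes in each list stand against 42.3% of genes in the 50% set and 23.2% in the 10% set. In 23 ribosome biogenesis genes the median difference was -1.55 and 16 were lower by 1 log2 unit. Gnl3, a nucleolar GTPase, averaged 1.14 ± 1.84 in E18.5 mutant and 4.78 ± 2.35 in E18.5 cap cells. Dkc1, which guides pseudouridylation of ribosomal RNA, averaged 1.92 ± 1.999 and 5.43 ± 2.36, and Nop56 of the box C/D particle was lower by 3.46. The 10 cell cycle genes had a median of -3.02 (10 lower) and the 12 RNA polymerase I genes -1.12 (7 lower). The 20 initiation factors, at -1.04 with 10 lower, and the 14 elongation factors and other TOP mRNAs, at -0.87 with 5 lower, were near the share and the median (-0.79) of the 50% set. Tpt1, another TOP mRNA, was higher by 0.45, and 14 housekeeping genes had a median of -0.40, with 3 higher and 4 lower.

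At matched gene number the biogenesis median was -0.49 (8 of 23 lower), that of TOP mRNAs 0.04 (2 of 14 lower) and that of cell cycle genes -1.39 (8 of 10 lower). Of genes in the 50% set 19.04% were lower in those cells, with a median of -0.16, so the TOP count was no higher than that share. The biogenesis genes stand at lower levels than the members, with a mean score of 3.47 against 8.50 in E18.5 cap cells, and the part of gene number in their difference was not tested further. Among growth regulators, Myc, a driver of ribosome production, was detected in 50 of 74 E18.5 cap and 1 of 44 E18.5 mutant cells, and in 22 of 71 interstitium cells. Mycn was lower by 1.202, Larp1 by 1.53 and Tsc2 by 1.34. Mtor (0.24) and Max (0.25) had higher means in mutant cells, and the difference of Mycl was 0. The 12 growth regulators had a median of -0.54, with 4 lower and 0 higher by 1 log2 unit. That count stands against 42.3% of genes lower in the 50% set and 23.2% in the 10% set.

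**Figure D4:**
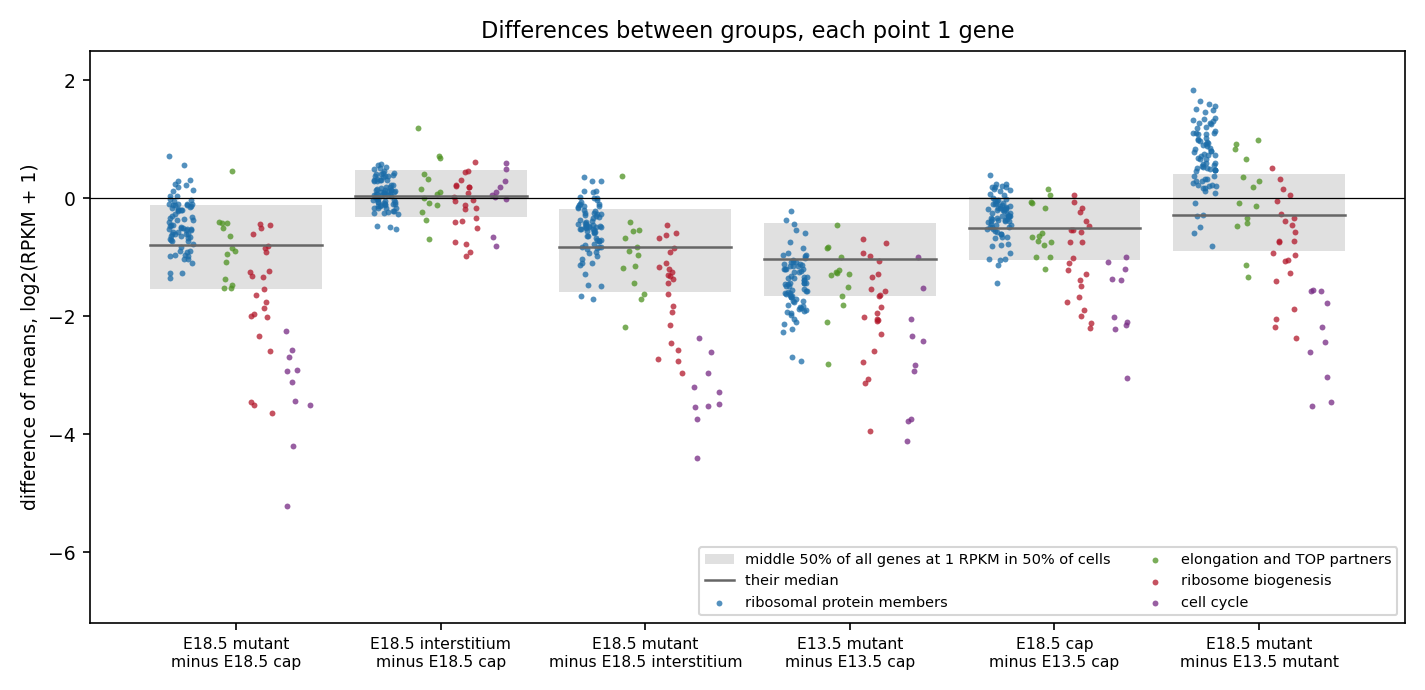
Each point is 1 gene, and the vertical axis is the difference of group means of log2(RPKM + 1) in 6 comparisons. Grey bands hold the middle 50% of genes at 1 RPKM in 50% of the cells of either group, with their median as a line; the E18.5 mutant members lie mostly above that median (-0.79) and the biogenesis and cell cycle genes below it.

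Members were also slightly lower in E18.5 mutant than in interstitium cells, in a comparison that shares its mutant cells with the one above. The score was lower by 0.49, the median member difference was -0.48, and 9 members were lower and 0 higher by 1 log2 unit, where 43.6% and 3.47% of 4437 genes at 1 RPKM in 50% of the cells were. In the 10% set the shares were 23.4% and 2.05%. The genes of that 50% set had a median of -0.82. At matched gene number, 33 and 35 cells, the score difference was -0.14 and 1 member was lower, where 21.95% of genes were. With median-ratio scaling it was -0.15 and 4 members were lower, where 35.9% of genes were. The median share of RPKM in members was 13.4% in mutant and 13.1% in interstitium cells, so the median was not lower in mutant cells. The mean share was, at 12.96% against 13.46%. Lower members with the largest distance were Rpl12 (-1.71), Rpl7a (-1.67), Rps27l (-1.48), Rps2 (-1.47), Rpl29 (-1.28) and Rps15 (-1.13). Interstitium cells carry pool numbers 2 and 3 and mutant cells 4, so pool and genotype cannot be told apart here either.

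Wild-type interstitium and cap at E18.5 differed in the members by less than the spread between cells. The score differed by 0.09 and the median member by 0.07, with 0 members higher and 0 lower by 1 log2 unit, where 10.3% and 5% of 4958 genes at 1 RPKM in 50% of the cells were (5.94% and 2.7% in the 10% set). With the 22 interstitium cells of pool 2, the pool number of the cap cells, though under a different date in the titles, the score difference was 0.07. The sign turned under 3 of the 11 alternatives: it came to -0.27 once cells reaching 20000 RPKM of LOC100503946 were left out, -0.17 by the log2 ratio of mean RPKM and -0.14 by group medians. The largest member differences were Rpl27a (0.58), Rpl8 (0.57), Rpl19 (0.53) and Rpl29 (0.51) upward, and Rpl39 (-0.53), Rpl23a (-0.50) and Rps24 (-0.47) downward. By group medians Rpl27a was at -0.17, Rpl19 at -0.03, Rpl29 at -0.06 and Rpl8 at 0.24. Without the LOC100503946 cells they were at -0.29, -0.16, -0.14 and 0.001. Rpl8 alone of the 4 did not turn in sign, and in the second setting it hardly differed. The Rpl39 mean of E18.5 cap cells in RPKM rests partly on 1 cell at 31427 RPKM, where the next highest was at 2731: the mean was 930 with it and 512 without. The sex read from transcripts also differs between these groups, and its part in the result was not tested.

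At E13.5 most members had lower means in mutant than in cap cells. The score was lower by 1.38 (7.41 ± 1.74 in 29 against 8.80 ± 0.48 in 18 cells), and the median member difference was -1.44. Of 80 members, 66 were lower and 0 higher by 1 log2 unit, where 51.3% of 5473 genes at 1 RPKM in 50% of the cells were lower and 1.64% higher, and 27.7% and 1.43% in the 10% set. The genes of the 50% set had a median of -1.03, and 65 of 77 read members lay below it. Both groups carry pool number 3, but the titles give them different dates, so date and genotype cannot be told apart. They also differ in the sex read from their transcripts, whose part was not tested. Identity and division markers moved with the comparison: of 8 nephron progenitor markers 6 were lower (median -2.58), of 8 stroma markers 4 were higher (median 1.26) and of 10 cell cycle genes 9 were lower (median -2.62). Their part was not tested.

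The size of the E13.5 difference depended on the weight of the low cells. As a difference of group medians the score was lower by 0.59 and 7 members were lower, where 62.7% of genes were. The median member then stood at -0.55 and the median gene at -1.42, so the family lay above the genes and not below them. Without cells at 20000 RPKM or more for LOC100503946, 21 and 17 cells, it was lower by 0.63 with 14 members lower, where 33.9% of genes were. The medians of members (-0.63) and genes (-0.65) were then alike. By the log2 ratio of mean RPKM it was lower by 0.38, with 3 members lower and 2 higher, where 20.4% and 8.66% of genes were. Only 2 E13.5 cap cells had 3000 to 5000 genes, too few for a matched comparison. The biogenesis genes had a median of -1.84 with 19 of 23 lower, and -1.40 with 16 lower without the LOC100503946 cells; TOP mRNAs had -1.28 (11 of 14 lower), and -0.54 (2 lower) without them. The same shares of genes, 51.3% with all cells and 33.9% without those cells, apply.

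Between ages, the family score of cap cells was lower by 0.30 at E18.5. Member differences ran from -1.44 to 0.39, and 5 members were lower and 0 higher by 1 log2 unit, where 26.7% and 3.61% of 5675 genes at 1 RPKM in 50% of the cells were (14.5% and 2.53% in the 10% set). By group medians the score difference was 0.01, and without the LOC100503946 cells it was 0.09, with 0 members lower in both, where 37.1% and 13.48% of genes were. In mutant cells the score was higher by 0.68 at E18.5 than at E13.5, and 24 members were higher and 0 lower, where 12.9% and 21.5% of 3471 genes were (6.69% and 11.5% in the 10% set). Without the LOC100503946 cells, 40 and 21 cells, this difference was 0.02, and 0 members were higher and 2 lower, where 9.16% and 34.7% of genes were. By group medians it was 0.13, with 2 members higher and 1 lower, where 16.7% and 38.95% of genes were. Pool, date and age cannot be told apart in either comparison.

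Departing members are those whose difference lies 1 log2 unit or more from the family median in the same comparison. There were 2 in E18.5 mutant minus cap, 0 in interstitium minus cap, 3 in E18.5 mutant minus interstitium, 4 in E13.5 mutant minus cap, 1 in cap between ages and 6 in mutant between ages. Of genes as widely detected (50% of the cells in whichever group was higher), 33.1%, 15.3%, 31%, 27.3%, 19.8% and 33.5% lay that far from their own median. For the single members below, too, the pool of the E18.5 mutant cells is shared by no other labelled group.

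Rpl24 stood highest above the family in E18.5 mutant minus cap with all cells. It is a large subunit protein that takes part in a bridge to the small subunit. Its RPKM had a lowest, median and highest value of 0, 707 and 1480 in E18.5 cap, 13.54, 696 and 3812 in interstitium and 3.07, 848 and 2898 in E18.5 mutant cells. In E13.5 cap the values were 357, 688 and 1109, and in E13.5 mutant 0, 524 and 2100. The E18.5 mutant median was the highest of the 5, and all groups overlapped. The difference from E18.5 cap was 0.71 (9.57 ± 1.42 against 8.85 ± 2.14), a departure of 1.17. The departure stayed positive under all 9 alternative settings, from 0.60 to 1.28. At matched gene number Rpl24 was higher by 1.35, and without the LOC100503946 cells it was lower by 0.13 while still 0.60 above the family. Rpl10 (0.88) and Rps27 (0.79) then stood farther above the family. Against interstitium Rps27 departed by 0.84 and Rpl24 by 0.78.

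Rpl10, an X-linked protein next to the peptidyl transferase centre, also stood above the family. Its median RPKM was 717 in E18.5 cap, 796 in interstitium, 844 in E18.5 mutant, 574 in E13.5 cap and 491 in E13.5 mutant cells. The E18.5 mutant minus cap difference was 0.56, a departure of 1.02, positive under all 9 alternatives (0.66 to 1.07). Rpl22 (0.30), Rps29 (0.28), Rps27 (0.25) and Rps15a (0.23) had higher means in E18.5 mutant cells, none by 1 log2 unit. Without the LOC100503946 cells Rpl22 was at -0.27, Rps29 at -0.30 and Rps15a at -0.36, and by group medians they were at -0.05, -0.17 and -0.11, so only Rps27 of these 4 kept its sign in both.

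Rpl10a, a protein of the L1 stalk, was lowest in E18.5 mutant cells. Its lowest, median and highest RPKM were 0, 459 and 2395 in E18.5 cap, 0, 353 and 1151 in interstitium, 0, 205 and 684 in E18.5 mutant, 72.4, 406 and 743 in E13.5 cap and 0, 413 and 1683 in E13.5 mutant cells. The E18.5 mutant median was below the other 4, with overlapping ranges. The difference from E18.5 cap was -1.36 (7.12 ± 1.93 against 8.48 ± 1.66). Its departure from the family was -0.90, and stayed negative under all 9 alternatives, from -1.23 to -0.69. From E13.5 mutant cells Rpl10a differed by -0.60 while the family median was higher by 0.73, a departure of -1.32 that stayed at 1 or more in size under 8 of 9 alternatives.

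Rpl12, near the base of the stalk, and Rpl7a, a large subunit protein, had lower means in E18.5 mutant cells than in either wild-type group of that age. Rpl12 had median RPKM of 467 in E18.5 cap, 448 in interstitium, 203 in E18.5 mutant, 498 in E13.5 cap and 293 in E13.5 mutant cells. Among cells with a family score of 7 or more, Rpl12 was below 10 RPKM in 5 of 39 E18.5 mutant cells, 1 of 66 E18.5 cap and 0 of 69 interstitium cells, where the median member was below 10 RPKM in 0 cells of every group. Rpl7a was so in 2 of 39 E18.5 mutant cells and in 0 cells of the other groups, and Rpl29 and Rps2 were also so in 2 of the 39. Rpl7a had medians of 968, 990, 506, 982 and 586 in the 5 groups. The E18.5 mutant minus cap differences were -1.28 for Rpl12 and -1.27 for Rpl7a, departures of -0.82 and -0.81. Rpl12 was -0.45 and Rpl7a -0.95 from the family at matched gene number. Rps27l (-1.10), Rpl15 (-1.03) and Rplp0 (-1.03) were the other 3 members lower by 1 log2 unit.

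Rps27l varied most between cells of the same group. Its lowest, median and highest RPKM were 0, 148 and 806 in E18.5 cap, 0, 154 and 1008 in interstitium, 0, 61.9 and 519 in E18.5 mutant, 0, 253 and 468 in E13.5 cap and 0, 82.0 and 590 in E13.5 mutant cells. E13.5 cap cells were highest and both mutant groups lowest by their medians, and all groups overlapped. Its log2 mean was 7.32 ± 1.95 in E13.5 cap, 5.87 ± 2.97 in E18.5 cap, 6.26 ± 2.54 in interstitium, 4.77 ± 3.15 in E18.5 mutant and 4.55 ± 3.70 in E13.5 mutant cells. Differences were -2.77 for E13.5 mutant minus cap and -1.44 between cap ages, departures of -1.33 and -1.15. At matched gene number Rps27l was higher by 0.25 in E18.5 mutant than in E18.5 cap cells. In cells with a score of 7 or more it was below 10 RPKM in 12 of 39 E18.5 mutant cells, against 7 of 66 cap and 9 of 69 interstitium cells of that age, and in 6 of 22 mutant against 1 of 18 cap cells at E13.5.

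Rps27 was read more evenly than Rps27l. Its median RPKM was 849 in E18.5 cap, 593 in interstitium, 962 in E18.5 mutant, 530 in E13.5 cap and 474 in E13.5 mutant cells. No cell with a score of 7 or more had Rps27 below 10 RPKM, which held for the median member of the family too. Rps27l summed to 18.51% of the Rps27 RPKM in E18.5 cap, 25.2% in interstitium, 10.96% in E18.5 mutant, 38.6% in E13.5 cap and 28.9% in E13.5 mutant cells. In E18.5 mutant cells Rps27 was higher than in interstitium by 0.36 while Rps27l was lower by 1.48. Rps27l was at 0 with Rps27 read in 11 of 74, 6 of 71, 9 of 44, 1 of 18 and 9 of 29 cells. The 10 p53 target genes had a median difference of -0.30 in E18.5 mutant minus cap, with 2 lower, and 0.02 in mutant minus interstitium, with 2 lower. Both counts are under the shares of genes lower in the 50% set (42.3% and 43.6%) and in the 10% set (23.2% and 23.4%).

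**Figure D5:**
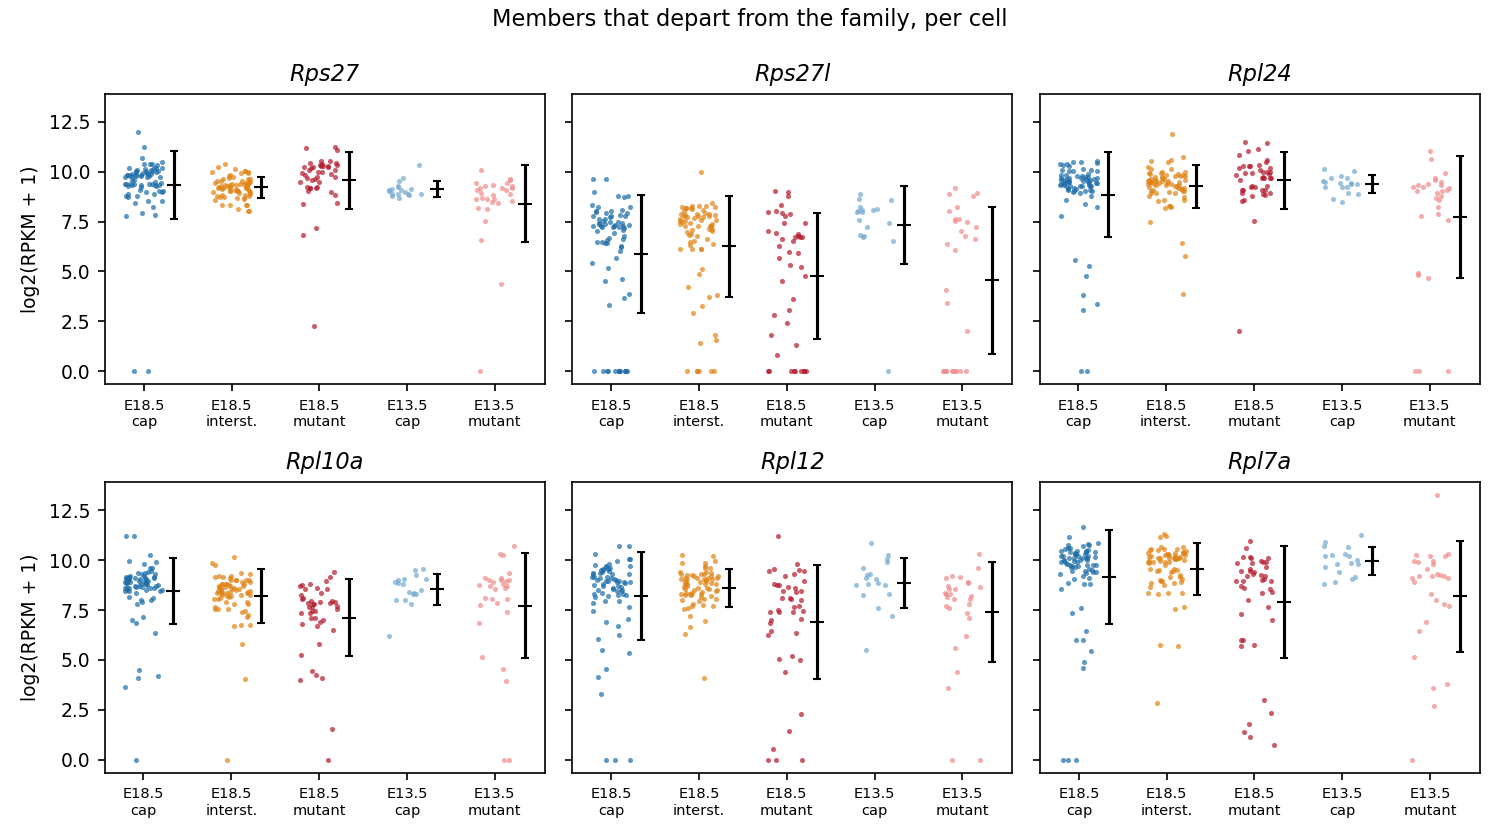
Each point is 1 cell and the vertical axis is log2(RPKM + 1), with bars at the mean ± SD between cells, for Rps27, Rps27l, Rpl24, Rpl10a, Rpl12 and Rpl7a in the 5 groups. Rps27l has cells at 0 in every group, while Rps27 is at 0 in 2 E18.5 cap cells and 1 E13.5 mutant cell.

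With all cells, the members farthest below the family in E13.5 mutant cells were Rps27l, Rpl29, Rpl18, Rps16, Rps6 and Rps2. Rpl29 differed by -2.69, with median RPKM of 183 in mutant and 497 in cap cells. Rps6, the classic target of S6 kinase, differed by -2.13, Rpl18 by -2.27, Rps16 by -2.22 and Rps2 by -2.10. Without the LOC100503946 cells Rps27l (-0.80), Rpl29 (-0.79), Rps2 (-0.63) and Rps6 (-0.51) still departed downward from the family. Rpl18 (-0.37) and Rps16 (-0.09) then lay closer to it. Least shifted with all cells were Rps15 (-0.21), Rps14 (-0.38), Rpl23 (-0.45), Rps18 (-0.53), Rpl17 (-0.59) and Rps27 (-0.74). Rps15 had median RPKM of 485 in mutant and 516 in cap cells. With median-ratio scaling Rps15 (0.42), Rps14 (0.29), Rpl23 (0.11) and Rps18 (0.13) were above 0, and Rpl17 was at 0.02 by group medians, so their direction depended on the setting.

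A single cell can set such a value when RPKM are averaged. Rpl23 reached 91249 RPKM in 1 E13.5 mutant cell with 1889 genes, 27.6% of the RPKM of that cell, where the next highest cell was at 2256. By the log2 ratio of mean RPKM, Rpl23 was then higher in mutant cells by 3.08, while on the mean of log values it was lower by 0.45. The other 28 cells averaged 360 RPKM, against 3494 with that cell.

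Between mutant ages Rps15 (-0.81), Rpl10a (-0.60), Rpl12 (-0.48), Rps14 (-0.31) and Rpl7a (-0.28) had lower means at E18.5, against a family that was higher. Rps14 and Rpl7a turned, to 0.18 and 0.24, at matched gene number. Rpl24 (1.84), Rps29 (1.65), Rpl13 (1.59) and Rpl37a (1.57) were higher by most. Between cap ages Rps27l (-1.44), Rpl8 (-1.14), Rpl27a (-1.05), Rps2 (-1.03) and Rpl19 (-1.02) were lower and Rpl23a (0.39) was the highest. Without the LOC100503946 cells the lower members were at -0.72, -0.43, -0.20, -0.63 and -0.22 in that order. Their size thus depended on the setting.

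The large and small subunits moved alike. In E18.5 mutant minus cap the 46 read large subunit members had a median of -0.36 and the 31 small subunit members -0.54. At E13.5 the medians were -1.48 and -1.35. The stalk proteins Rplp0, Rplp1 and Rplp2 had a median of -0.73 at E18.5 and -1.71 at E13.5. The 4 members on the X chromosome (Rpl10, Rps4x, Rpl39 and Rpl36a) had a median of -0.03 at E18.5 against -0.48 for autosomal members, and -1.13 against -1.45 at E13.5. In interstitium minus cap it was 0.16 against 0.07. The groups of the E13.5 and of the interstitium comparison differ in the sex read from transcripts. In E18.5 mutant minus cap, most cells of both groups had Xist without Y-linked transcripts. The part of sex was not tested.

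Members varied together from cell to cell. The median Pearson r over pairs of the 77 read members was 0.44 in E18.5 cap cells, 0.34 in interstitium cells, 0.40 in mutant cells at E18.5, 0.37 in cap cells at E13.5 and 0.48 in mutant cells at E13.5. With each gene centred on its group mean over 236 cells, the r of a member with the mean of the others had a median of 0.63 and was highest for Rpl13 (0.82), Rps29 (0.80) and Rps16 (0.79). It was lowest for Rpl23 (0.42), Rps15 (0.47), Rpl39 (0.48), Rpl15 (0.50) and Rps27l (0.51). All members of a cell share its depth.

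Genes outside the family were ranked by how closely they followed its score. Among 3606 genes outside the family, the highest r with the score were Gm13456 (0.78), Eef1g (0.75), Eef1a1 (0.73), Ftl2 (0.73), Ftl1 (0.72), Fau (0.72), Gnb2l1 (0.71), Hsp90ab1 (0.71), Fth1 (0.70) and Chchd2 (0.70), where the median gene had 0.22. Of these 10, Eef1g, Eef1a1, Fau and Gnb2l1 are TOP mRNAs or ribosome-bound, Ftl1 and Fth1 encode ferritin chains and Hsp90ab1 a chaperone. Eef1g and Eef1a1 are elongation factors, Fau encodes a ribosomal protein fused to a ubiquitin-like one, and Gnb2l1 is the ribosome-bound scaffold RACK1. The TOP partner list had r of 0.92, 0.93, 0.80, 0.81 and 0.93 with the family score in the 5 groups. The housekeeping list had 0.83, 0.62, 0.70, 0.47 and 0.89, and the initiation factors 0.80, 0.47, 0.47, 0.72 and 0.87. The biogenesis list had 0.68, 0.41, 0.32, 0.54 and 0.74, and the cell cycle list 0.27, 0.04, -0.16, 0.53 and 0.43.

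Of 7 ribosomal protein paralogs and fusions outside the rule, 2 were lower by 1 log2 unit in E18.5 mutant than in cap cells, against 42.3% of genes, and 4 at E13.5, against 51.3%. Neither count stands clear of its share. Rps3a1 differed by -0.65 at E18.5 and -0.97 at E13.5, and Fau by -0.42 and -1.29. Rpl36al differed by -1.39 and -2.80, and Rpl7l1 by -1.09 and -0.81. Pseudogene entries bear on how reads were shared. Of 946 pseudogene entries named after members, 24 were at 1 RPKM or more in any cell. Their part of the joint RPKM of a member and its pseudogenes was largest for Rps15a (44.02%), Rps2 (13.4%) and Rpl3 (10.6%), so the levels of these 3 are uncertain, including Rps15a as the lowest read member.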

How the data were processed

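Single cells of E13.5 and E18.5 mouse kidneys were sequenced, and per the submitters' processing notes reads were aligned to mm10 with TopHat. Versions, gene models, counting and the handling of reads with several matches are not given in the sources used here. The authors deposited RPKM for 36186 entries in 237 cells. No counts are given, so depth is unknown: ratios of low values gave no read steps (median of 10.3% in the 3 fullest bins over 226 cell pairs), and genes at 1 RPKM or more stand in for it. No 2 cells were duplicates (highest correlation 0.809). 1 cell with conflicting labels entered no comparison.

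Values were taken as log2(RPKM + 1), which understates differences of low genes, and averaged over cells (Python 3.11.15, numpy 2.4.6, pandas 2.3.3, scipy 1.17.1). Each group counts as 1 sample, so no p-value was computed, and a difference of 1 log2 unit served as a call. The code was tested on simulated data. Of the shares of cells, that of Rpl3l alone is given with a 95% Clopper-Pearson interval, which covers counting error and treats cells as independent. Members and lists were chosen with earlier results of these data known. Named genes are the 10 highest and 10 lowest members, the 6 that departed most in each direction per comparison, X-linked members, paralogs, fixed lists and the 10 most alike genes. A few of these are not reported here. LOC100503946 and the thresholds of a score of 6 or 7 and of 10 RPKM were chosen after values were seen. Alternatives were pseudocounts of 0.1 and 10, 2 scalings, the ratio of mean RPKM, cells of 3000 to 5000 genes, members at 1 RPKM in 50% of cells, pool 2 alone and, added after seeing the data, 2 treatments of LOC100503946 and group medians. No doublet caller was used. Sequences are RefSeq GRCm38.p6 start windows and GENCODE M21 coding sequences.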

Additional observations from a re-analysis of the deposited data

How the results depend on the processing

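The difference in family score ranged from -0.70 to 0.08 over the alternatives for E18.5 mutant minus cap, -0.27 to 0.22 for interstitium minus cap, -0.55 to -0.14 for E18.5 mutant minus interstitium, -1.60 to -0.19 for E13.5 mutant minus cap, -0.38 to 0.25 for cap between ages and 0.02 to 0.82 for mutant between ages. Counts of members past 1 log2 unit moved by over 1.5 times as follows. For E18.5 mutant minus cap (6 lower, 42.3%), they were 10 with a pseudocount of 0.1 (58.2%) and 3 with a pseudocount of 10 (12.1%). They were 1 with median-ratio scaling (34.5%) and 2 by the ratio of mean RPKM (20.5%). In cells of 3000 to 5000 genes 1 was lower (19.04%), and without the LOC100503946 cells 15 were (52.5%). Members higher (0, 6.4%) became 1 with median-ratio scaling (7.77%) and 2 in cells of 3000 to 5000 genes (12.9%). For interstitium minus cap, 1 was lower by the ratio of means (6.47%) and 3 were higher in cells of 3000 to 5000 genes (17.9%). For E18.5 mutant minus interstitium (9 lower, 43.6%), there were 5 with a pseudocount of 10 (13.996%) and 4 with median-ratio scaling (35.9%). By the ratio of means 0 were lower (17.3%), and in cells of 3000 to 5000 genes 1 was (21.95%). Without the LOC100503946 cells 5 were lower (45.1%), and by group medians 3 (60.4%). For E13.5 mutant minus cap (66 lower, 51.3%), there were 32 with median-ratio scaling (36.7%), and 3 by the ratio of means (20.4%) with 2 higher (8.66%). In cells of 3000 to 5000 genes there were 14 (31.6%) with 7 higher (26.9%). Without the LOC100503946 cells there were 14 (33.9%), and by group medians 7 (62.7%). For cap between ages 5 were lower (26.7%) and 0 higher (3.61%). There was 1 lower with a pseudocount of 10 (5.6%), with median-ratio scaling (19.96%) and with rescaling without LOC100503946 (23.5%). By the ratio of means 0 were lower (11.7%) and 1 higher (7.54%). Without the LOC100503946 cells 0 were lower (13.48%), as by group medians (37.1%). In cells of 3000 to 5000 genes, with 2 E13.5 cap cells, 8 were lower (33.2%) and 14 higher (26.3%). For mutant between ages 24 were higher (12.9%) and 0 lower (21.5%). With a pseudocount of 10 there were 14 higher (5.99%), and by the ratio of means 1 (14.7%) with 3 lower (16.2%). In cells of 3000 to 5000 genes there were 14 higher (14.3%) and 2 lower (22.2%). Without the LOC100503946 cells 0 were higher (9.16%) and 2 lower (34.7%), and by group medians 2 (16.7%) and 1 (38.95%). In cells of 3000 to 5000 genes, with 2 E13.5 cap cells, Rps27l turned to 0.25 in E18.5 mutant minus cap and to 1.002 in cap between ages, and Rpl27a to 0.045 in cap between ages. Of 732 values of single named members under an alternative, 41 had the opposite sign, in 21 of 72 member differences. Of the 41, 10 arose in cells of 3000 to 5000 genes, 10 without the LOC100503946 cells and 7 by group medians, and the 3 just named were the ones with 1 log2 unit or more at first. The cause was not tested. No paired analysis was possible because the labels tie no cell to a cell of a different group. Depth is unknown, and 1 sample per group allows no test.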

Other observations

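The cell that entered no comparison, because its source name and its cell type label name different lineages, had a family score of 8.66. Its RPKM was 2162 for Rpl41, 484 for Rps27, 100.4 for Rps27l, 716 for Rpl24 and 274 for Rpl10a.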
